A study of Mus musculus with 22 samples.

Results

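The genes described here are 9 genes of heat-producing fat: the uncoupling protein genes Ucp1, Ucp2 and Ucp3, the transcriptional regulators Prdm16, Ppargc1a and Ppargc1b, and Dio2, Elovl3 and Adrb3. They were chosen by name, and all 9 were found among the 30170 genes in the table of read counts. RNA was sequenced from C3H 10T1/2 cells, a mouse mesenchymal stem cell line that can be turned into adipocytes, in which DNMT3A was WT, carried the substitution W330R, or carried W330R together with R181E (W330R-R181E, the double mutant below). W330R lies in the PWWP domain of DNMT3A, an enzyme that adds methyl groups to CpG sites in DNA. There were 22 libraries in 11 conditions, with 2 libraries in each. WT and W330R were sequenced undifferentiated and on days 2, 4 and 6 of differentiation, and the double mutant on days 2, 4 and 6, with no undifferentiated libraries of the double mutant analysed here. All cells of days 2, 4 and 6, WT controls included, had first been induced for 2 days with dexamethasone (1 μM), the phosphodiesterase inhibitor isobutylmethylxanthine (0.5 mM), the PPARγ agonist troglitazone (5 μM) and insulin (5 μg/mL), of which insulin alone was kept afterwards. The labels call the second substitution R181E, whereas the column names of those 6 libraries call it R181A. They do not say whether the 2 libraries of a condition came from separate cultures or separate lines, and p-values then measure only the spread between these libraries, which may be technical. How many lines carry each genotype is not said either, so genotype and line cannot be told apart.

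Brown and beige adipocytes burn fuel to make heat. In the classical pathway noradrenaline binds the beta-3 adrenergic receptor encoded by Adrb3, cAMP rises, and the coactivator PGC-1α encoded by Ppargc1a is induced and switches on mitochondrial genes together with Ucp1, whose protein lets protons leak back across the inner mitochondrial membrane. PRDM16 directs precursor cells towards the brown fate, DIO2 activates thyroid hormone inside the cell, and ELOVL3 lengthens saturated fatty acids in brown fat. UCP2 and UCP3 are mitochondrial carriers related to UCP1, found widely and mainly in muscle and brown fat respectively, and PGC-1β, encoded by Ppargc1b, is a close relative of PGC-1α that drives mitochondrial biogenesis.

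Because DNMT3A acts on CpG sites, the start regions of 4 of the members for which one was found are shown, each running from 250 bases before to 50 bases after the annotated start. The sequences are those of RefSeq on build GRCm38.p6, 5′ to 3′ on the strand of the gene, with every CpG in capitals. Ucp2 lies at chr7:100493108-100493407 on the plus strand, Ucp3 at chr7:100472741-100473040 on the plus strand, Ppargc1a at chr5:51567676-51567975 on the minus strand, and Prdm16 at chr4:154636824-154637123 on the minus strand. DNA methylation was not measured in these libraries.
Ucp2: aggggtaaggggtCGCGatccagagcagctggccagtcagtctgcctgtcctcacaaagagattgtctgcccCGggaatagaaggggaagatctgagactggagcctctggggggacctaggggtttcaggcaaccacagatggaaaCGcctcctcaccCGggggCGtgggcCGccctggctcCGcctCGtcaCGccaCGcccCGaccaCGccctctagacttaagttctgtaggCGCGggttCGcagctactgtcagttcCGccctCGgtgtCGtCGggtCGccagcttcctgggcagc
Ucp3: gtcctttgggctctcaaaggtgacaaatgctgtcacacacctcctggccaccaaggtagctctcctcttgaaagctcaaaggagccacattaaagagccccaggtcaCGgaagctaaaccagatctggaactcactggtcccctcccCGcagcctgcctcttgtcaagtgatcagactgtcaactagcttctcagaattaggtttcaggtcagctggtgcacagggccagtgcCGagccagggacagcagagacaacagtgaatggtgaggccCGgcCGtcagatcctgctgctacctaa
Ppargc1a: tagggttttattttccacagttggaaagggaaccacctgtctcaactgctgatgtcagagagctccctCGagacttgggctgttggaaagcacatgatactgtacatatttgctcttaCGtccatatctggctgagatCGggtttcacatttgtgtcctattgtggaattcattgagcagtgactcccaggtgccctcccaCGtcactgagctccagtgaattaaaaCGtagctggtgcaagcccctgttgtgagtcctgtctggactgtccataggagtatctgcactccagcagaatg
Prdm16: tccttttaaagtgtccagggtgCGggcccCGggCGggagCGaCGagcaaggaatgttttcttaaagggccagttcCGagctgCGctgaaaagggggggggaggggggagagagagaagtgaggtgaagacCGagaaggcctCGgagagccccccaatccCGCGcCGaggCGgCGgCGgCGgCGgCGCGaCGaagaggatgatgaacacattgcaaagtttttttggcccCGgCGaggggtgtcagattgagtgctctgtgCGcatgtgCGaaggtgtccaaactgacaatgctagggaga

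A start region was found for 6 of the 9 members: Ucp1, Ucp2, Ucp3, Prdm16, Ppargc1a and Dio2. Prdm16 held 24 CpG sites and Ucp2 held 21, more than 80% and 75.2% of the 32851 start regions of the same length in the mouse table. Ucp1 held 15, Ucp3 and Ppargc1a held 5 each, and Dio2 held 3, beside a median of 7 over all start regions. Members with many CpG sites thus stood both among those read at the floor of detection (Ucp1, Prdm16) and among those that rose with differentiation (Ucp2). Short motifs were searched on both strands. The nuclear receptor half-site AGGTCA, held by 16.3% of all start regions, occurred 2 times in that of Ucp3 and 1 time in that of Ucp1. The cAMP response element TGACGTCA, held by 1.79%, occurred in Dio2 alone among the 6, and its shorter form TGACG, which it overlaps and which 20.8% of start regions hold, occurred in Ucp1, Ucp2, Ucp3, Ppargc1a and Dio2. In Ppargc1a it lies at position -49 from the start, on the reverse strand. The TATA box TATAAA, held by 13.6%, occurred in Dio2, and the GC box GGGCGG, held by 35.7%, in Ucp2 and Prdm16. The PPAR element, a direct repeat of AGGTCA with 1 base between, the estrogen-related receptor element TCAAGGTCA and the palindrome TTGCGCAA bound by C/EBP factors, held by 0.0396%, 0.423% and 0.183% of all start regions, were not in any of the 6 windows.

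The libraries held 8859501 to 47453908 gene counts (median 19355792). Levels are given as CPM, counts relative to the library total after TMM scaling. A count of 3 in a library was taken as the floor of detection, which corresponds to 0.0583 to 0.347 CPM depending on the library and, as PCR copies of a molecule are counted too, covers counting error only. Dnmt3a itself was read at 68.5 to 347 CPM, and such counts cannot show which substitution a library carries. The stage labels were checked against fat cell markers: the summed level of 12 adipocyte markers was 26.4 to 57.8 CPM in the 4 undifferentiated libraries and 1698 to 10620.5 CPM in the 18 later ones. Of that list only Lep, the leptin gene, had no read in any WT or W330R library. The 2 undifferentiated pairs stood closer together than all later pairs (chi-square per degree of freedom over genes of 3.10 and 3.40, against 29.3 to 103), and their columns are named in another pattern, so that a batch and the change between undifferentiated cells and day 2 cannot be told apart.

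The genes that define the thermogenic program were at or close to the floor. Ucp1 had 27 reads in all 22 libraries together, with no more than 6 in any of them and none in 10 of them. On days 2 to 6 its reads numbered 2 over the 6 WT libraries, 10 over the 6 W330R libraries and 15 over the 6 double mutant libraries. The highest Ucp1 values, 0.139 and 0.325 CPM, were those of the double mutant on day 6, from 6 and 3 reads. Dio2 had 23 reads in all, 0 in 10 libraries and at most 6 in a library, reached by W330R on day 2 at 0.228 CPM. Neither gene had enough reads to be tested, and Ucp1 and Dio2 were too low to judge in 9 and 10 of the 11 conditions, where both libraries held 3 reads or fewer. At this depth induction of either gene was not detectable in WT, which does not show that it is absent.

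Prdm16 had 64 reads in all and was at or below the floor in every WT and W330R library. Its counts on days 2 to 6 were 0 to 2 in WT, 0 to 3 in W330R and, in the double mutant, 11 and 2 on day 2, 7 and 6 on day 4, and 24 and 1 on day 6. As CPM the double mutant values were 0.903 and 0.0990, 0.425 and 0.261, and 0.558 and 0.108. The lower library on days 2 and 6 lay within the WT range, which reached 0.113 CPM, so the genotypes overlapped. Over days 2 to 6 the double mutant held 51 Prdm16 reads against 6 in W330R, a ratio per counted read of 11.2 (95% interval 4.81 to 31.9), and against 4 in WT, a ratio of 10.7 (3.94 to 40.8), where the exact intervals cover counting error only. The fit across genes called both differences (edgeR adjusted p = 0.00965 and 0.0240). Prdm16 reached that fit only through the double mutant libraries, so that a difference was built into its being tested. Without replicate 1 of the double mutant on day 6, the library of 24 reads, neither call held (adjusted p = 0.116 and 0.157), and the call against WT was lost in 6 of the 22 fits that each left out 1 library.

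**Figure D1:**
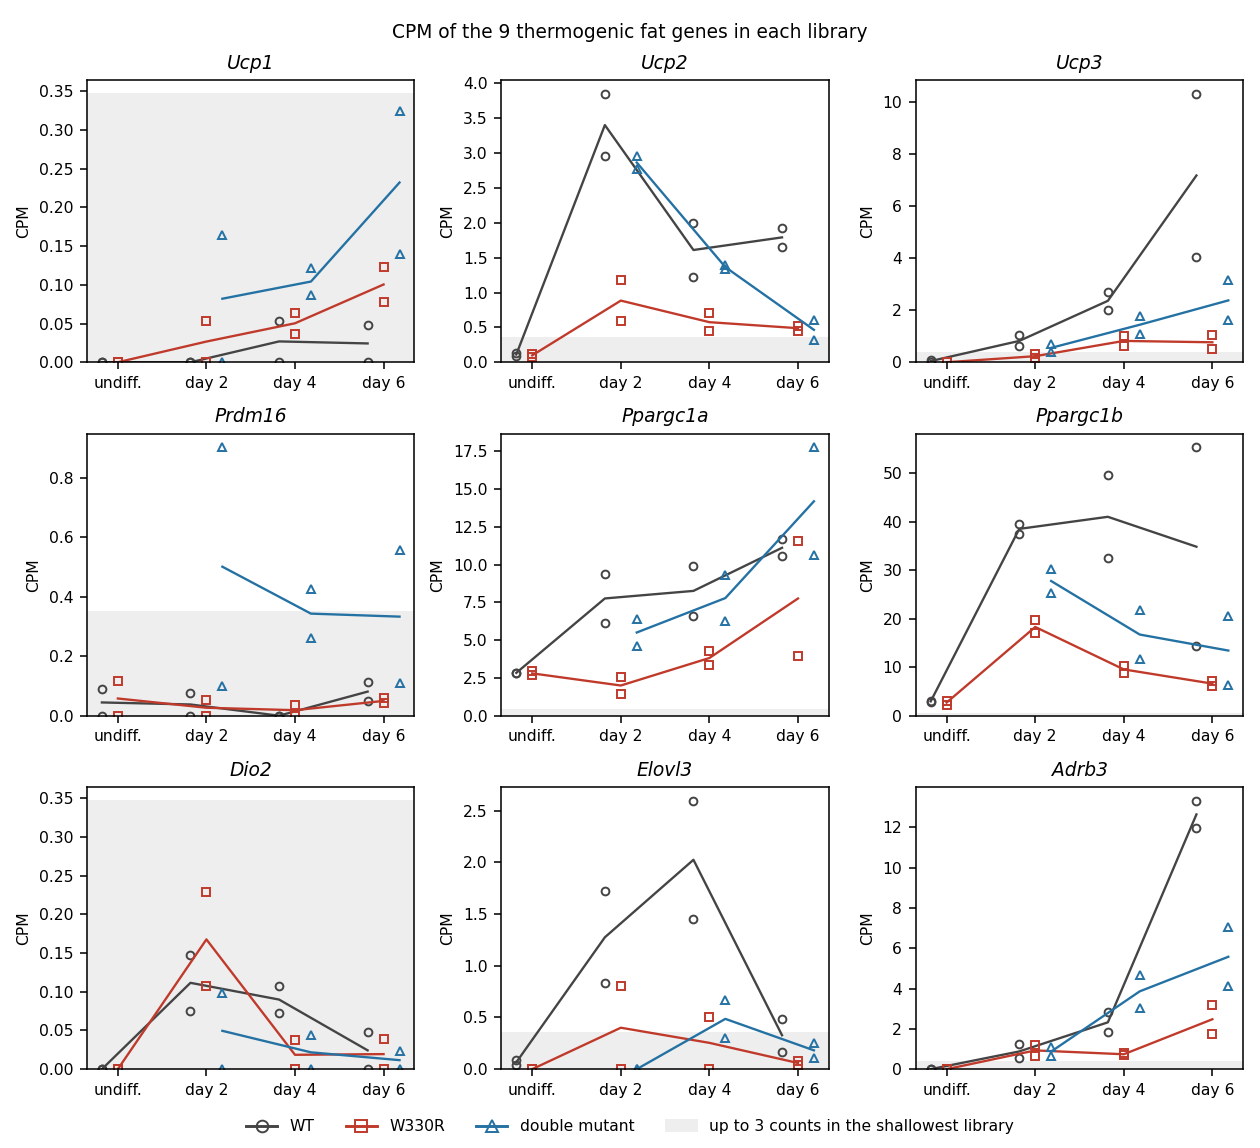
CPM (y axis, linear) of each of the 9 genes in each library (points) at each stage (x axis), with a line through the mean of 2 libraries for WT, W330R and the double mutant; the grey band is the level of 3 counts in the shallowest library. Ucp1 and Dio2 stay within the band, Prdm16 leaves it only in the double mutant, and Ppargc1b reaches the highest level, 55.3 CPM.

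Ppargc1b and Ppargc1a, the genes of the PGC-1 coactivators, were the only members well above the floor before differentiation, and both rose in WT. Ppargc1b was read at 2.91 and 2.98 CPM in undifferentiated WT cells, 37.5 and 39.5 on day 2, 32.4 and 49.5 on day 4, and 14.3 and 55.3 on day 6. In W330R it was read at 2.29 and 3.12 CPM undifferentiated, 19.6 and 16.9 on day 2, 8.84 and 10.2 on day 4, and 6.06 and 7.15 on day 6. The double mutant values were 30.1 and 25.4 on day 2, 11.7 and 21.7 on day 4, and 6.25 and 20.6 on day 6. Every W330R library of days 2, 4 and 6 was thus below both WT libraries of its own day, and the double mutant overlapped WT only on day 6. In such bulk libraries fewer cells of a type and less RNA per cell cannot be told apart. From undifferentiated cells to day 2 Ppargc1b rose by 3.70 ± 0.62 on the log2 scale (SE) in WT and by 2.77 ± 0.62 in W330R (edgeR adjusted p = 0.000199 and 0.00230). The later change from day 2 to day 6 was -0.14 ± 0.53 in WT and -1.47 ± 0.55 in W330R, neither of which passed the test (adjusted p = 0.877 and 0.0642), while DESeq2 called the W330R change (-1.45, adjusted p = 0.0337). Of the 10 pairs of neighbours in the order of condition means, 7 overlapped, among them WT on days 2, 4 and 6.

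Ppargc1a was read at 2.82 and 2.85 CPM in undifferentiated WT cells and at 2.94 and 2.66 in undifferentiated W330R cells. In WT the levels were 9.36 and 6.15 on day 2, 9.89 and 6.62 on day 4, and 10.5 and 11.7 on day 6. In W330R they were 1.44 and 2.55 on day 2, 3.37 and 4.26 on day 4, and 3.93 and 11.6 on day 6. W330R therefore stood below its own undifferentiated level on day 2, the stage at which WT had already risen, and its day 6 libraries lay far apart, the higher within the range of WT. In the double mutant the levels were 6.40 and 4.61 on day 2, 9.30 and 6.26 on day 4, and 10.6 and 17.8 on day 6, overlapping WT on every day. The rise to day 2 was 1.45 ± 0.47 on the log2 scale in WT (adjusted p = 0.0182), whereas in W330R the change was -0.48 ± 0.48 (adjusted p = 0.432). The WT call was lost in 3 of the 22 fits without 1 library (either undifferentiated WT library or replicate 1 of WT on day 2, lowest change 1.12). The difference between these changes, -1.92 ± 0.67, did not pass the test itself (adjusted p = 0.180). From day 2 to day 6 Ppargc1a rose in W330R by 1.93 ± 0.47 and in the double mutant by 1.36 ± 0.45 (adjusted p = 0.00823 and 0.0436). The W330R rise was lost in 2 of the 22 fits without 1 library. These were the fits without replicate 1 of day 2 and without replicate 2 of day 6, where the rise was 0.97. The double mutant rise was lost in 12 of the 22 fits. Both were lost when only the conditions compared were fitted.

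The widely expressed carrier gene Ucp2 was close to the floor before differentiation, with 1 to 3 reads in each of the 4 undifferentiated libraries. In WT it was read at 3.85 and 2.95 CPM on day 2, 1.23 and 1.99 on day 4, and 1.93 and 1.65 on day 6. In W330R the levels were 0.588 and 1.18 on day 2, 0.445 and 0.704 on day 4, and 0.525 and 0.452 on day 6, all below both WT libraries of the same day. The double mutant levels were 2.96 and 2.77 on day 2, 1.34 and 1.39 on day 4, and 0.604 and 0.325 on day 6. One double mutant library of day 2 and both of day 4 thus lay within the WT range, the other of day 2 lay below it, and on day 6 the double mutant overlapped W330R and was below WT. Per counted read, WT on day 2 had 28.0 times the Ucp2 of undifferentiated WT (95% counting interval 10.6 to 104), and W330R had 9.75 times that of undifferentiated W330R (2.54 to 83.2). From day 2 to day 6 Ucp2 fell in the double mutant by 2.50 ± 0.43 on the log2 scale, to a level 5.67-fold lower (adjusted p = 0.00138). The corresponding changes were -0.92 ± 0.39 in WT and -0.86 ± 0.41 in W330R and did not pass the test (adjusted p = 0.0956 and 0.145). Replicate 2 of the double mutant on day 6 held 3 Ucp2 reads, which is the floor. A fit of the double mutant libraries of days 2 and 6 alone did not call the fall.

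Ucp3, the relative of Ucp1 best known from muscle, had 2 reads in the 4 undifferentiated libraries together. In WT it was read at 0.604 and 1.03 CPM on day 2, 2.02 and 2.69 on day 4, and 4.03 and 10.3 on day 6. In W330R the levels were 0.160 and 0.305 on day 2, 0.636 and 1.00 on day 4, and 0.505 and 1.03 on day 6. Ucp3 therefore went on rising in WT after Ucp2 had passed its highest level, whereas in W330R its day 4 and day 6 ranges overlapped. The double mutant gave 0.410 and 0.693 on day 2, 1.09 and 1.78 on day 4, and 1.60 and 3.14 on day 6, above both W330R libraries on each day. From day 2 to day 6 Ucp3 rose by 3.10 ± 0.63 on the log2 scale in WT, 8.58-fold, and by 2.02 ± 0.65 in the double mutant, 4.05-fold (adjusted p = 0.00333 and 0.0393). In W330R the change was 1.63 ± 0.68 (adjusted p = 0.09996). Without replicate 2 of WT on day 6 the WT rise was 2.27 and still called. The double mutant rise was lost without either of its day 2 libraries or replicate 2 of day 6 (adjusted p = 0.113 to 0.162), with values of 1.495 to 2.468. The skeletal muscle markers summed to 1.36 to 25.7 CPM over the 18 later libraries, with Myod1, which sets the muscle fate, at 0 in all of them, and their part in the Ucp3 level was not tested.

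Adrb3, the receptor through which noradrenaline acts on fat cells, had no read in any undifferentiated library. In WT it was read at 0.529 and 1.23 CPM on day 2, 2.82 and 1.83 on day 4, and 13.33 and 11.96 on day 6. In W330R the levels were 0.641 and 1.22 on day 2, 0.700 and 0.778 on day 4, and 1.75 and 3.20 on day 6. The genotypes did not part on day 2, and on days 4 and 6 both W330R libraries were below both WT libraries. In the double mutant Adrb3 was read at 0.657 and 1.09 on day 2, 4.68 and 3.04 on day 4, and 4.11 and 7.04 on day 6, which placed it above both other genotypes on day 4 and between them on day 6. Against a floor of 3 reads per undifferentiated library, day 2 was at least 4.42-fold higher in WT and at least 3.14-fold higher in W330R. From day 2 to day 6 Adrb3 rose by 3.80 ± 0.53 on the log2 scale in WT, 13.9-fold, and by 2.62 ± 0.52 in the double mutant, 6.17-fold (adjusted p = 0.000399 and 0.00439). In W330R the change was 1.38 ± 0.50 and did not pass the test (adjusted p = 0.0610), while DESeq2 called it (1.398, adjusted p = 0.0454). The difference between the W330R and WT changes, -2.42 ± 0.71, did not pass either (adjusted p = 0.345).

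Elovl3, the fatty acid elongase of brown fat, had 182 reads in all and was too low to judge in 3 of the 11 conditions, undifferentiated WT and W330R cells and the double mutant on day 2, the last with no read. In WT it was read at 0.831 and 1.72 CPM on day 2, 2.60 and 1.45 on day 4, and 0.170 and 0.486 on day 6. In W330R replicate 1 held 15 reads on day 2 and 8 on day 4, whereas replicate 2 held 0 on both days. On day 6 the W330R libraries held 4 reads and 1 read. The double mutant held 11 and 7 reads on day 4 and 11 and 1 on day 6. Elovl3 was thus highest in WT on days 2 and 4, was low again by day 6, and its W330R libraries lay far apart. It passed the filter on low counts mainly through the WT libraries. Over days 2 to 6 WT held 122 Elovl3 reads, W330R 28 and the double mutant 30.

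Levels of different genes were compared per kilobase of merged exons in the GENCODE mouse annotation on GRCm38. Merged exons join those of all annotated transcripts of a gene, 6.99 kb for Ucp2 and 1.64 kb for Ucp1. Which transcripts were made was not measured, so the order of genes, and the place of Ucp2 above all, depends on this length. On that scale the WT day 2 levels were 9.64 CPM per kb for Ppargc1b, 1.18 for Ppargc1a, 0.646 for Elovl3, 0.487 for Ucp2, 0.261 for Ucp3 and 0.260 for Adrb3. By day 6 the WT levels were 8.72 for Ppargc1b, 3.75 for Adrb3, 2.29 for Ucp3, 1.69 for Ppargc1a, 0.256 for Ucp2 and 0.166 for Elovl3. The day 6 order differed between the libraries: in replicate 1 Adrb3, at 3.95 CPM per kb, was above Ppargc1b at 3.58, and Ucp3 at 1.28 was below Ppargc1a at 1.60, whereas in replicate 2 the levels were 13.9 for Ppargc1b, 3.54 for Adrb3, 3.29 for Ucp3 and 1.77 for Ppargc1a.

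Whether the thermogenic genes differ between W330R and WT was asked first over the 4 stages together. Of the 7 members with enough reads to be tested, 4 were lower in W330R than in WT and none was higher, where 22.9% of all 14520 genes tested were called in either direction and 11.8% were called lower. A gene was called where its Benjamini-Hochberg adjusted p over all genes in edgeR's quasi-likelihood test was under 0.05. On the log2 scale Ucp2 changed by -1.37 ± 0.26 (SE, adjusted p = 0.00250). Ppargc1b changed by -1.43 ± 0.29 (adjusted p = 0.00337), Ppargc1a by -0.90 ± 0.23 (adjusted p = 0.0129) and Ucp3 by -2.47 ± 0.61 (adjusted p = 0.0111). The Ucp2 and Ucp3 calls were lost without replicate 2 of undifferentiated WT (-1.28 and -1.63, adjusted p = 0.126 and 1.00), where these genes have almost no reads. For Adrb3, which had none there, this mean has no usable estimate.

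Restricting the mean to days 2 to 6, a choice made after the data were seen because most members are at the floor before differentiation, the 5 members with the most reads were all lower in W330R, beside 29% of genes called in either direction and 14.8% called lower. The cut to these 5, which sets Elovl3 and Prdm16 apart here and below, was not planned either. The median change of these 5 was -1.74 on the log2 scale, against 0.02 for all genes tested. Ucp2 was 3.35-fold lower (-1.74 ± 0.24, adjusted p = 0.000178), Ppargc1b 3.63-fold lower (-1.86 ± 0.32, adjusted p = 0.000818) and Ucp3 4.52-fold lower (-2.18 ± 0.37, adjusted p = 0.000986). Ppargc1a was 2.28-fold lower (-1.19 ± 0.26, adjusted p = 0.00406) and Adrb3 2.48-fold lower (-1.31 ± 0.29, adjusted p = 0.00564). These 5 calls were kept in each of the 22 fits that left out 1 library, with the largest adjusted p at 0.0335 for Adrb3. Elovl3, tested mainly because of its WT reads, changed by -2.40 ± 0.80 (adjusted p = 0.0398), a call that was lost in 9 of those 22 fits, and was -4.39 and -4.13 without replicate 1 of W330R on day 2 and on day 4. Prdm16 changed by 0.44 ± 0.77 (adjusted p = 0.714).

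Stage by stage the same comparison found fewer calls, with 2 libraries on each side. In undifferentiated cells none of the 7 was called (1.75% of all genes were) and none had an unadjusted p under 0.05. DESeq2 called none of them, beside 501 genes in all. On day 2 Ucp2 (-1.92 ± 0.40, adjusted p = 0.0217) and Ppargc1a (-1.94 ± 0.47, adjusted p = 0.0396) were lower, beside 3.06% of genes called in either direction. On day 4 Ppargc1b was lower (-2.10 ± 0.56, adjusted p = 0.0408), beside 6.14%, and DESeq2, which called 1636 genes in all, called Adrb3 lower too (-1.65, adjusted p = 0.0463). On day 6 Ucp2 (-1.85 ± 0.41, adjusted p = 0.0153), Ucp3 (-3.25 ± 0.62, adjusted p = 0.00851), Ppargc1b (-2.40 ± 0.56, adjusted p = 0.0195) and Adrb3 (-2.36 ± 0.49, adjusted p = 0.0138) were lower, beside 7.54%. All 7 single-stage calls were lost in at least 3 of the 22 fits without 1 library, and a fit of the 4 libraries of a stage alone called none. Without replicate 2 of WT on day 6 the Ppargc1b difference of that day was -1.12 (adjusted p = 0.445) and the Ucp3 difference -2.41 (adjusted p = 0.133).

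**Figure D2:**
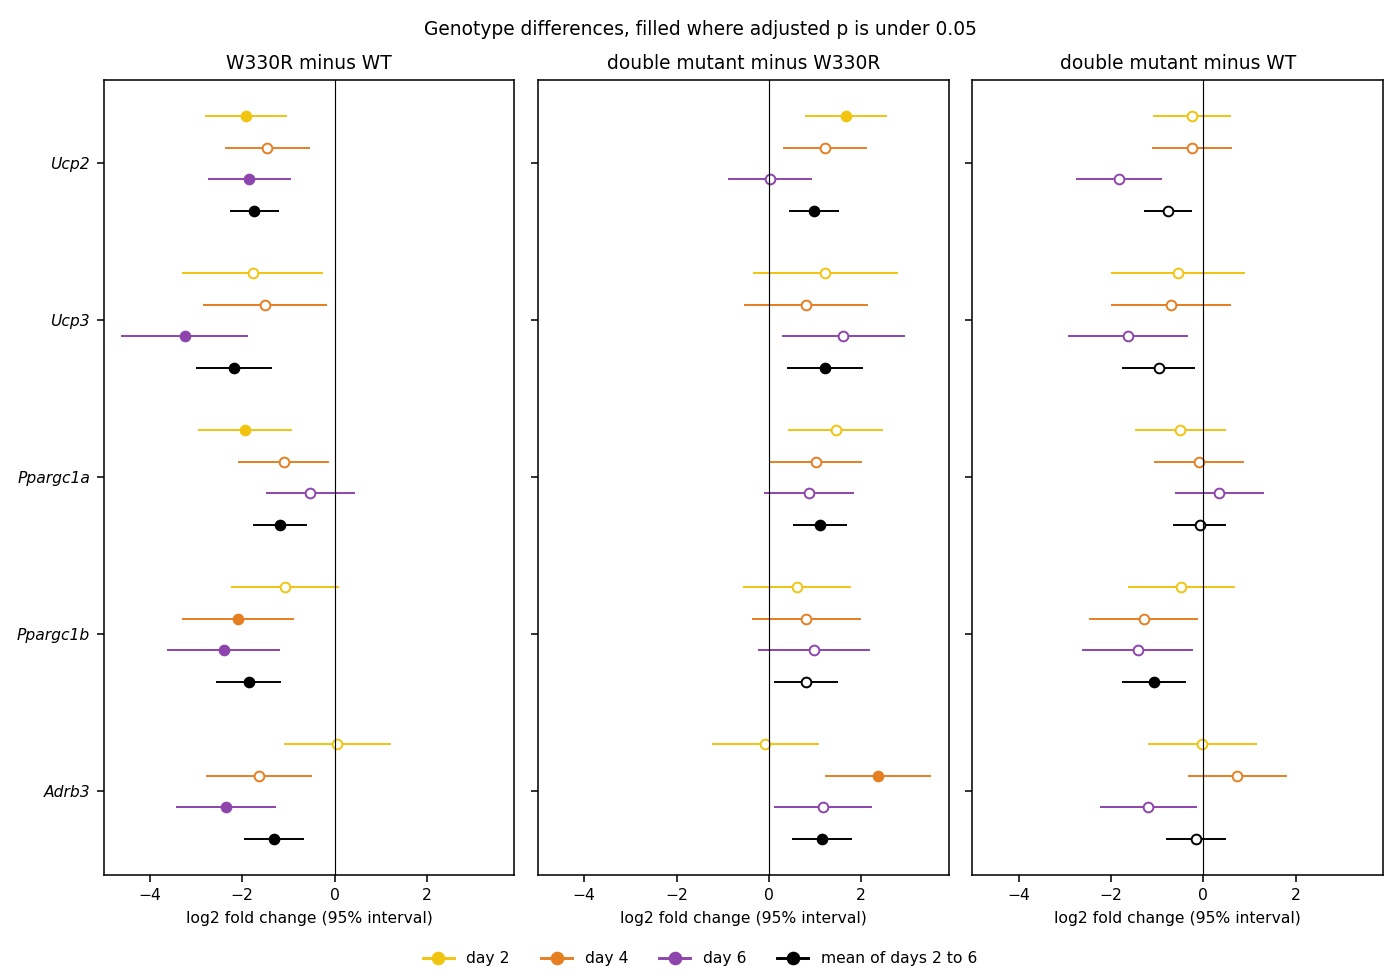
Log2 fold change (x axis, with its 95% interval) of the 5 members with the most reads for each genotype pair on day 2, day 4, day 6 and as the mean of these days, on 1 shared scale; filled points have an adjusted p under 0.05. All 5 means of W330R minus WT are filled and below 0, and those of the double mutant minus W330R are above 0 with 4 of the 5 filled.

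The double mutant was set against W330R, from which its label differs by the added substitution R181E. Over days 2 to 6, the double mutant exceeded W330R for 4 of the 5 members with the most reads and was below it for none of them, where 17.2% of all genes were called in either direction and 7.87% were called higher. Ucp2 was 1.96-fold higher (0.97 ± 0.24, adjusted p = 0.0131), Ucp3 2.32-fold (1.21 ± 0.38, adjusted p = 0.0413), Ppargc1a 2.16-fold (1.11 ± 0.26, adjusted p = 0.0102) and Adrb3 2.22-fold (1.15 ± 0.29, adjusted p = 0.0180). The call of Prdm16, given above, is left out of this count because the double mutant libraries alone brought that gene into the test. Ppargc1b differed by 0.80 ± 0.31 (adjusted p = 0.0992) and Elovl3 by -1.08 ± 1.18 (adjusted p = 0.600). The Ppargc1a call was kept in every fit that left out 1 library. That of Ucp2 was lost without replicate 1 of the double mutant on day 6 (0.77, adjusted p = 0.170), that of Adrb3 in 3 of the 22 fits (without replicate 1 of W330R on day 4 or day 6, or replicate 2 of the double mutant on day 2, 1.02 to 1.12), and that of Ucp3 in 8 of them (lowest 1.04).

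By day, Ucp2 was higher in the double mutant on day 2 (1.67 ± 0.40, adjusted p = 0.0415, 2.67% of genes called) and Adrb3 on day 4 (2.37 ± 0.52, adjusted p = 0.0398, 1.91% called). On day 6 no member was called by edgeR (1.5% of genes called) or by DESeq2 (652 genes called). Unadjusted, 3 members had a p under 0.05, a threshold at which the share of all genes was not computed. The Ucp2 and Adrb3 calls were lost in 11 and 10 of the 22 fits without 1 library. On day 6 the Ucp2 levels of both mutants overlapped, with a difference of 0.03 and a 95% interval of -0.87 to 0.92.

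Against WT, 1 of the 5 members with the most reads was called in the double mutant over days 2 to 6, beside 9.57% of all genes (4.46% higher and 5.12% lower), and Prdm16 is again left out. Ppargc1b was lower, by a log2 change of -1.06 ± 0.31 (adjusted p = 0.0468), a call lost in 18 of the 22 fits without 1 library and down to -0.63 without replicate 2 of WT on day 6 (adjusted p = 0.191). Ppargc1a differed by -0.08 with a 95% interval of -0.63 to 0.47, and Adrb3 by -0.16 with an interval of -0.785 to 0.465. The differences of Ucp2 (-0.77 ± 0.23, adjusted p = 0.0506), Elovl3 (-3.48 ± 1.06, adjusted p = 0.0591) and Ucp3 (-0.96 ± 0.36, adjusted p = 0.101) did not pass the test, whereas DESeq2 called that of Elovl3 (-3.21, adjusted p = 0.0270). Elovl3 entered the test mainly through its WT reads and had no double mutant read on day 2. Per counted read over days 2 to 6 the double mutant had 0.207 times the WT level of Elovl3 (95% counting interval 0.134 to 0.310). On single days no member was called by edgeR (0%, 0% and 0.875% of genes on days 2, 4 and 6). DESeq2 called 1, on day 6, beside 551 genes in all. Members with an unadjusted p under 0.05 numbered 2, 2 and 4, and the share of all genes at that threshold was not computed. The libraries of each genotype enter 2 of these 3 comparisons, so the comparisons are not independent.

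No change of a genotype difference between stages was called for any member in 4 interaction contrasts, namely each genotype pair between days 2 and 6, and W330R against WT between undifferentiated cells and day 2. Of all genes 0.0895%, 0%, 0.0413% and 1.87% were called in them (W330R against WT, the double mutant against W330R, the double mutant against WT, and the early step). DESeq2 called no member, beside 126, 33, 69 and 647 genes in all. Members with an unadjusted p under 0.05 numbered 2, 2, 2 and 1, and the share of all genes at that threshold was not computed. A stage at which a difference is called is therefore not shown to differ from one at which it is not. For the changes over time, 6 of the 7 tested members rose from undifferentiated cells to day 2 in WT and 4 in W330R, beside 50.9% and 48.2% of genes called in either direction. Ucp2, Ucp3, Elovl3 and Adrb3 held 3 reads or fewer in every undifferentiated library and passed the filter only through later ones. A rise was thus built into their being tested, which leaves the rises of Ppargc1b in both genotypes and of Ppargc1a in WT. The Elovl3 rise in WT, from 2 reads to 46, a ratio of 23.2 (95% counting interval 6.06 to 197), was lost in 14 of the 22 fits without 1 library, and the Ucp3 rise in W330R, from 0 reads to 11, in 3 of them. From day 2 to day 6, 2 members changed in WT, 1 in W330R and 4 in the double mutant, beside 26.6%, 25% and 23.2%. DESeq2 called 3 in W330R, beside 4112 genes in all, where Ppargc1b and Adrb3 were added to Ppargc1a.

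Adipocyte markers were also lower in W330R than in WT. Their summed level on days 2 to 6 was 3435 to 10620.5 CPM in WT, 1698 to 3022 in W330R and 2275 to 5097 in the double mutant, so that W330R lay below WT without overlap. On each day both double mutant libraries were above both W330R libraries. They overlapped WT on day 2 (3717 and 5097 against 3435 and 3844). They were below it on day 4 (3504 and 3890 against 5612 and 6865) and on day 6 (2275 and 3456 against 5992 and 10620.5). From day 2 to day 6 the sum fell in W330R, from 3022 and 2236 to 1698 and 1847 CPM, while Ppargc1a rose there. It fell in the double mutant too, where Ppargc1a, Ucp3 and Adrb3 rose and Ucp2 fell. Of the 11 tested adipocyte markers 9 were lower in W330R than in WT over days 2 to 6, among them Fabp4 (-1.24 ± 0.27), the fatty acid carrier of fat cells, Adipoq (-1.23 ± 0.20), which encodes adiponectin, and Plin1 (-1.22 ± 0.27), which coats the lipid droplet. Between the double mutant and W330R, 6 of the 11 were higher and 1, Cd36, was lower. Of all genes 14.8% were lower in the first comparison, and 7.87% were higher and 9.36% lower in the second. Expressed per 1000 CPM of these markers, W330R was below WT without overlap for Ppargc1b on day 2 (6.49 to 7.58 against 9.74 to 11.5) and day 4 (3.95 to 4.09 against 5.78 to 7.21), and for Ucp2 on day 2 (0.195 to 0.528 against 0.859 to 1.00). So was Ucp3 on day 2 (0.0531 to 0.136 against 0.157 to 0.301), with 3 and 8 reads in W330R. By day 6 the Ucp2 ranges overlapped, and the means of Ppargc1b were 3.80 in WT, 3.72 in W330R and 4.35 in the double mutant. The day 6 means of Adrb3 were 1.68, 1.38 and 1.92, with overlapping ranges between WT and W330R. For Ucp3 they were 0.821, 0.427 and 0.807, and the W330R range of 0.298 to 0.556 stayed below the WT range of 0.672 to 0.970. For Ppargc1a they were 1.43, 4.29 and 4.90, both W330R libraries (2.31 and 6.27) lying above both WT libraries (1.10 and 1.76). On day 2 the same ratio for Ppargc1a was 2.11 in WT, 0.809 in W330R and 1.25 in the double mutant. There the W330R range of 0.478 to 1.14 was below the WT range of 1.79 to 2.44. The part of the number of adipocytes in the genotype differences was not tested. Macrophage and leukocyte markers summed to 9.84 to 22.3 CPM, and endothelial and epithelial markers to 1.18 to 17.7 CPM, in the 18 libraries of days 2 to 6.

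Markers of bone and cartilage cells stood apart between replicates. The osteoblast and chondrocyte markers summed to 2168, 4699 and 5263 CPM in replicate 1 of the double mutant on days 2, 4 and 6, and to 275, 1190 and 1613 in replicate 2. In WT replicate 1 held 977, 1569 and 2207 CPM and replicate 2 held 256, 447 and 496, and W330R lay at 366 to 872. Of their 5 tested genes Col2a1 (3.22 ± 0.86, adjusted p = 0.0197) and Col10a1 (3.58 ± 0.92, adjusted p = 0.0164), both cartilage collagens, exceeded their W330R level in the double mutant, and Runx2, a bone transcription factor, was below it (-0.65 ± 0.12, adjusted p = 0.00194). These 3 are named after their values were seen, and 7.87% of all genes were higher and 9.36% lower in that comparison. Another fit, also chosen after the data were seen, left out replicate 1 of WT and the double mutant on days 2 to 6. This took out 6 libraries and left 1 in each of these conditions, so the spread within them was not measured. Only log2 changes are therefore given. The 5 members with the most reads were still lower in W330R than in WT, at -0.998 for Ppargc1a to -2.52 for Ucp3, and Elovl3 changed by -2.58. Between the double mutant and W330R the changes were 1.56 for Ucp3, 1.25 for Adrb3, 1.10 for Ppargc1b, 1.03 for Ppargc1a and 0.76 for Ucp2. Prdm16 changed by 2.02 and Elovl3 by -1.59. Between the double mutant and WT Ppargc1b changed by -1.09 and Prdm16 by 3.55.

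**Figure D3:**
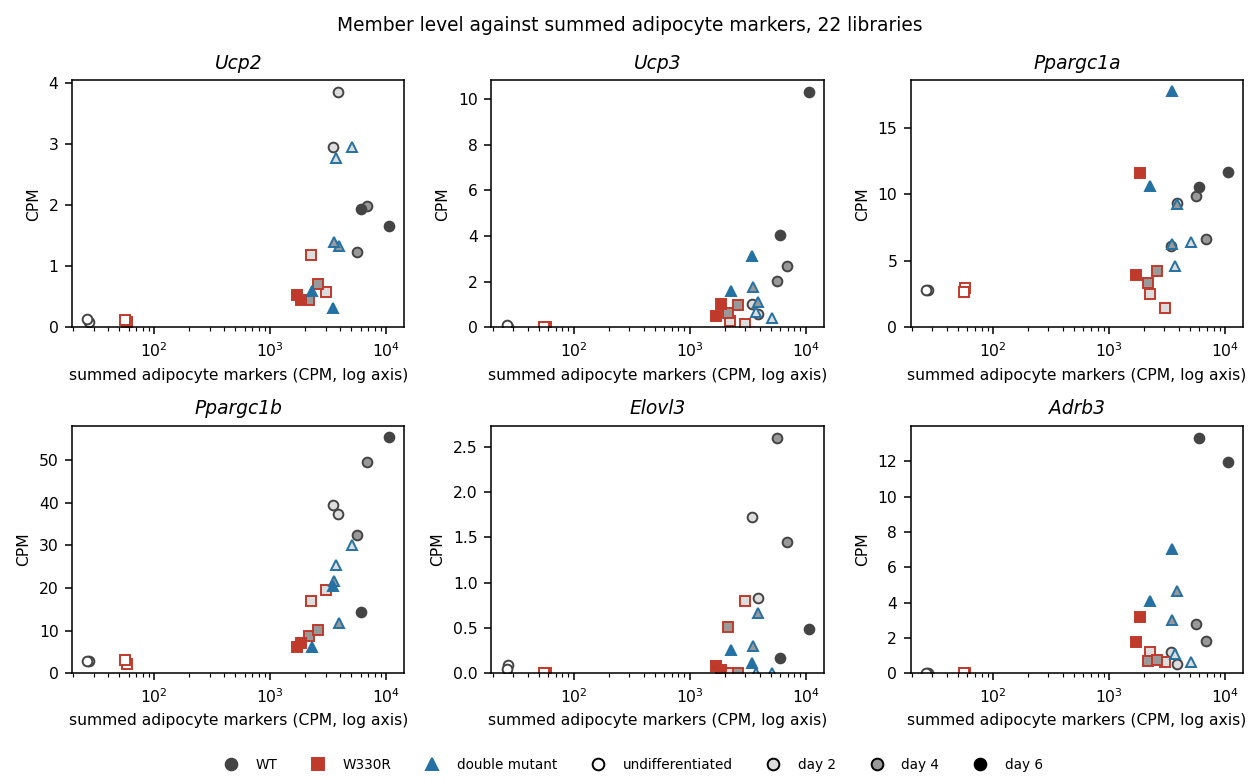
CPM of 6 members (y axis, linear) against the summed CPM of 12 adipocyte markers (x axis, log scale) in each of the 22 libraries, with shape and colour for genotype and filling for stage. W330R libraries of days 2 to 6 lie at 1698 to 3022 CPM of markers and WT libraries at 3435 to 10620.5, and the highest Ppargc1a level, 17.8 CPM, is that of a double mutant library with fewer markers than either day 6 WT library.

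Of 28 further brown and beige fat markers 16 had enough reads to be tested, and over days 2 to 6 W330R was lower for 3 and higher for 2, with a median change of 0.08 on the log2 scale, where 14.8% of all genes were lower and 14.3% higher. The 3 lower genes were Cox8b (-2.39 ± 0.40, adjusted p = 0.000877), a cytochrome oxidase subunit of brown fat and muscle, Cidea (-2.40 ± 0.81, adjusted p = 0.0405), a lipid droplet protein of brown fat, and Pank1 (-0.36 ± 0.08, adjusted p = 0.00509), which starts coenzyme A synthesis. The higher genes were Tbx1 (0.70 ± 0.16, adjusted p = 0.00575), a transcription factor used as a beige marker, and Pdk4 (0.63 ± 0.16, adjusted p = 0.00977), which restrains glucose oxidation. Cox8b, Cidea, Pdk4, Lhx8 and Zic1 are named after their values were seen. Cox8b had a mean of 56.3 CPM in WT, 2.49 in W330R and 17.95 in the double mutant on day 6, and the double mutant exceeded W330R by 2.04 ± 0.38 (adjusted p = 0.00296). Lhx8, an early brown fat factor, had no read in any condition, and Zic1, another, had means of 0.0992 to 0.361 CPM.

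Among 24 tested partners of PGC-1 and PRDM16, 8 were lower and 1 was higher in W330R than in WT over days 2 to 6. Of all genes 14.8% were lower and 14.3% higher, here and for the signalling genes below. The lower ones included Cebpa (-2.21 ± 0.18, adjusted p = 8.9e-06), Cebpb (-0.68 ± 0.21) and Rxra (-0.86 ± 0.23), transcription factors of fat cell formation, and Esrra (-0.68 ± 0.13), the estrogen-related receptor through which PGC-1 proteins act on mitochondrial genes. The higher one was Esrrg (1.86 ± 0.53), a further estrogen-related receptor. Esrra, Esrrg and Ehmt1 are named after their values were seen. In the double mutant 1 of the 24 was higher than in W330R, Cebpa (0.66 ± 0.18), which stayed below WT (-1.54 ± 0.18), and 1 was lower, Ehmt1 (-0.33 ± 0.05), a histone methyltransferase that binds PRDM16. Of 22 tested genes of beta-adrenergic and cAMP signalling 7 were lower and 2 higher in W330R. The lower ones included Pnpla2 (-1.71 ± 0.19), which encodes the first lipase of lipolysis, and Prkar2b (-1.56 ± 0.15), a regulatory subunit of protein kinase A. In the double mutant both were above W330R, by 0.60 ± 0.18 and 0.82 ± 0.14.

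Of 8 tested genes that handle thyroid hormone 4 were lower in W330R, among them the transporter Slc16a10 (-1.05 ± 0.21), and 3 were called above W330R in the double mutant. Of all genes 14.8% were lower and 14.3% higher in W330R, for this list and those below, and 7.87% were higher in the double mutant. Of 8 tested mitochondrial carriers related to the UCP and ADP/ATP carriers 5 were lower and 1 higher in W330R. Slc25a10, the dicarboxylate carrier, changed by -1.51 ± 0.18, and Slc25a5, an ADP/ATP carrier, by -1.13 ± 0.19, while Slc25a27, also known as Ucp4, changed by 0.79 ± 0.22. Of 6 other fatty acid elongases Elovl4 was lower (-1.45 ± 0.44) and Elovl1 higher (0.26 ± 0.08), and none was called between the double mutant and W330R. Fibroblast and mesenchymal markers were higher in W330R for 6 of 12 tested, with Thy1 at 3.42 ± 0.69 and Pdgfra at 0.95 ± 0.16, and lower for none. The lists of muscle, macrophage, endothelial and bone markers had 4, 4, 4 and 5 tested genes, of which 1, 0, 2 and 1 were higher and 1, 0, 0 and 1 lower.

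**Figure D4:**
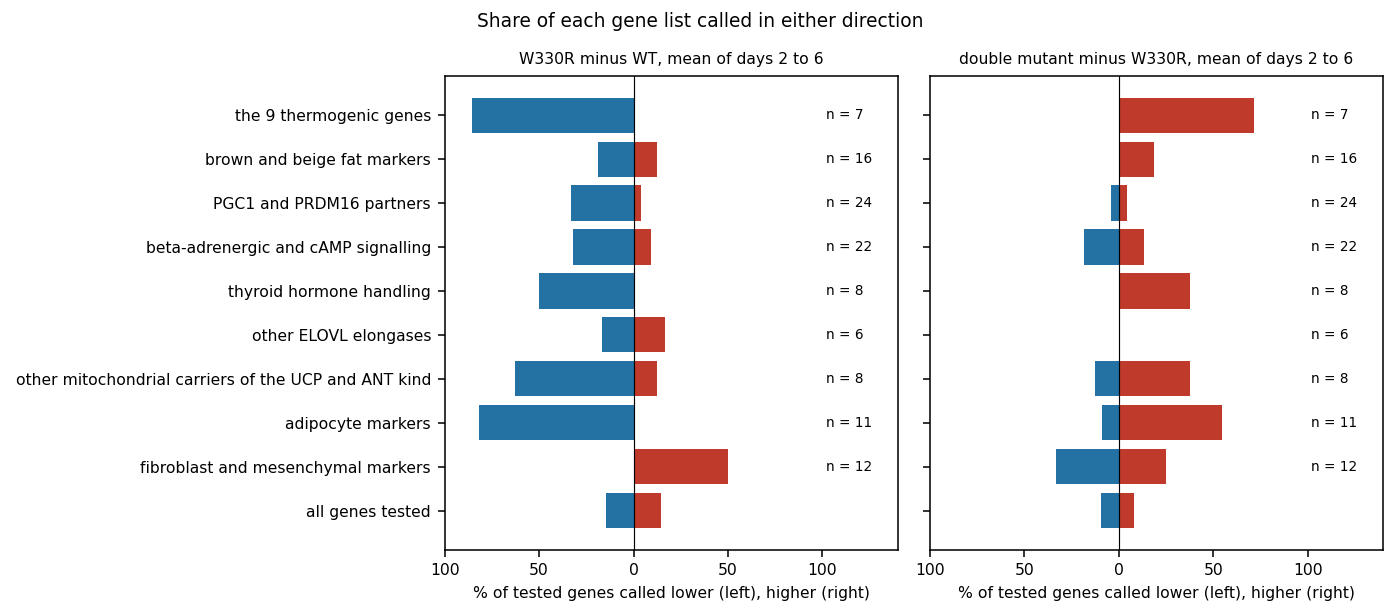
Share of the tested genes of each list (rows, n tested at the right) called lower (left, blue) or higher (right, red) in percent, for W330R minus WT and for the double mutant minus W330R over days 2 to 6. Of the 7 tested thermogenic genes 6 are lower in W330R and 5 higher in the double mutant, of which Elovl3 in the first and Prdm16 in the second entered the test mainly through the genotype in which they are high. The bottom row gives all genes tested, at 14.8% lower and 14.3% higher in the first comparison and 9.36% lower and 7.87% higher in the second.

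As a description of pattern, condition means of log2 CPM were compared over the 11 conditions, which share depth and the same 22 libraries, with all genes of a mean log2 CPM of at least 1. The genes most like Ppargc1b were Isca1, Pdhb and Tomm40 (Pearson's r = 0.993, 0.992 and 0.992), which encode an iron-sulfur cluster assembly factor, a pyruvate dehydrogenase subunit and the import pore of the outer mitochondrial membrane. Those most like Adrb3 were Apoe, Gpd1 and Epm2a (0.972, 0.969 and 0.967). Ucp2 was most like Med20, Mgll and Emc8 (0.970, 0.966 and 0.966), and Ucp3 most like Osbp, Agmo and Clstn3 (0.977, 0.973 and 0.973). Ppargc1a had less close neighbours in Slc12a4, Fbln7 and Penk (0.944, 0.934 and 0.929). The values for Elovl3 (Prkd1, Nln and Nap1l4, 0.917, 0.912 and 0.884) and Prdm16 (Kcne2, Mtss1l and Dcaf12, 0.916, 0.907 and 0.902) rest on few reads. Ppargc1b and Ucp2 resembled each other (r = 0.952).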

How the data were processed

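RNA was sequenced from 22 libraries of differentiating C3H 10T1/2 cells, and the deposited values are whole-number read counts per gene, not normalized by the authors. The submitters' processing notes name kallisto, DESeq2 1.40 and the build GRCm39, and how reads were assigned to genes is not given in the sources used here. Groups and stages were taken from the sample labels. Genes with enough counts by filterByExpr in edgeR 4.0.16 (minimum count 10, minimum total 15) were kept, which left 14520 of 30170, and libraries were scaled by TMM. A quasi-likelihood model with a mean for each of the 11 conditions was fitted to all 22 libraries, and p-values were adjusted by Benjamini-Hochberg over all genes tested. Standard errors are the log2 change over the square root of F. The mean over days 2 to 6 of W330R against WT was added after the data were seen. Count ratios carry exact 95% intervals. The fitting code was tested on simulated data. Total counts of 8859501 to 47453908 per library set a floor of 3 counts at 0.0583 to 0.347 CPM. Alternatives were RLE scaling, no filter, the replicate number as a block, each comparison's own conditions, DESeq2 1.42.0, a floor of 10 counts and leaving out each library. The 9 genes, the gene lists and the tests were chosen with earlier results of these data known. Genes were named from those with the largest called change in W330R against WT over 4 stages, up to 3 per list. Not all of these are given. Adipoq, Fabp4 and Plin1 were named in any case, and for each tested member the 3 genes of most similar pattern. Other list genes in the text, among them Cd36, were named outside this rule. Start regions came from RefSeq on GRCm38.p6, with none used here for Ppargc1b, Elovl3 and Adrb3, and gene lengths from a GENCODE annotation on GRCm38. The files' own build differs, so their coordinates were not used. Figures were drawn with matplotlib 3.10.9. One gene of the lists is not reported here.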

Additional observations from a re-analysis of the deposited data

How the results depend on the processing

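No called result changed direction under the alternatives tried. RLE scaling changed no call among the members, and moved the mean level of 0 of 99 member and condition pairs by more than the spread, where scaling by total counts moved 6. With a floor of 10 counts 55 pairs in place of 63 were above the floor. Without the filter on low counts, 1 member in place of 2 was called between the double mutant and W330R on single days. In the fit of each comparison's own conditions the calls were 1 in place of 2 for the double mutant against WT over days 2 to 6, 0 in place of 7 for W330R against WT at single stages, 0 in place of 2 for the double mutant against W330R on single days, and 3 in place of 7 from day 2 to day 6. DESeq2 called 1 member in place of 0 for the double mutant against WT on single days. The causes were not tested.

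With the replicate number as a block, 5 members in place of 2 were called for the double mutant against WT over days 2 to 6, 11 in place of 7 for W330R against WT at single stages, and 2 in place of 0 for the double mutant against WT on single days. Added over days 2 to 6 were Ucp2 (-0.76, adjusted p = 0.0420), Ucp3 (-0.95, adjusted p = 0.0111) and Elovl3 (-3.66, adjusted p = 0.0305). From day 2 to day 6 in W330R 4 members in place of 1 were called, with Ucp3 (1.67), Ppargc1b (-1.50) and Adrb3 (1.38) added. The labels do not say that a number pairs samples. Deviations of same-numbered libraries correlated on average by 0.289 among days 2 to 6 (-0.095 to 0.702, 36 pairs), and by -0.009 where an undifferentiated library was set against a later one (18 pairs).

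The counts of the double mutant over days 2 to 6 include Prdm16. A fit without replicate 1 of WT and the double mutant on days 2 to 6 leaves 1 library in each of these conditions, so its calls are not counted here. Leaving out each library in turn gave 2 to 5 calls for W330R against WT over 4 stages (4 in the full fit), 3 to 6 for the double mutant against W330R over days 2 to 6 (5), 0 to 3 for the double mutant against WT (2), 2 to 8 for W330R against WT at single stages (7), 0 to 2 and 0 to 1 for the double mutant against W330R and WT on single days (2 and 0), 8 to 10 from undifferentiated cells to day 2 (10), 5 to 8 from day 2 to day 6 (7) and 0 for the interactions. The lone library left in such a condition is assumed to vary like the others.

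Over all genes, calls rose by more than 1.5 times under the block and DESeq2 in several comparisons, from 1390 to 2338 and 2226 for the double mutant against WT over days 2 to 6. For W330R against WT they rose from 254 to 392 and 501 in undifferentiated cells, 445 to 909 and 1029 on day 2, 891 to 1848 and 1636 on day 4, and 1095 to 1757 and 1730 on day 6. For the double mutant against W330R they rose from 387 to 749 and 886, 278 to 542 and 682, and 218 to 498 and 652 on days 2, 4 and 6, and against WT from 0 to 10 and 101, 0 to 3 and 145, and 127 to 386 and 551. Depth limits Ucp1 and Dio2 in every genotype, Prdm16 in WT and W330R, and Elovl3 in most mutant libraries.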
